A study of Mus musculus with 12 samples.

Results

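The repeats described here are the ERV1 elements of the mouse genome outside the RLTR6 group. They were taken as every repeat name whose family is exactly ERV1, without RLTR6-int, RLTR6_Mm, RLTR6B_Mm and RLTR6C_Mm, which gave 115 of the 18538 repeat names counted. Total RNA was measured in C57BL/6 embryos at the 2-cell stage, 1.5 days after fertilization, with 6 libraries in each of 2 groups. The WT group, labelled m+/p-, came from wild-type oocytes and the KO group, labelled m-/p-, from Kdm4a knockout oocytes, and the sperm was Kdm4a knockout for both. All embryos therefore lacked a working paternal Kdm4a allele, so that the groups differed in the maternal allele and in what the oocyte had stored. Kdm4a encodes a histone demethylase. Any other difference between the egg donors cannot be told apart from genotype, and the labels give neither the number of embryos in a library nor the number of females used. The p-values measure the spread between these libraries, which may in part be technical.

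ERV1 elements are class I endogenous retroviruses, the remains of retroviruses related to the gammaretroviruses, of which murine leukaemia virus is the best known. A complete copy has an internal part with the viral genes, flanked by a long terminal repeat (LTR) at each end that carries the promoter. Most copies have recombined to a single terminal repeat, and the oldest are shared by many mammals. A repeat name gathers the reads of all copies of 1 element or part, in the names ending in -int the internal part, so its level depends on the number and length of copies as well as on their transcription. Levels of different names are therefore given as reads and not as transcription per copy. Reads from genes that carry a copy in an intron or untranslated region may be among them.

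Total counts ran from 10946392 to 18902360 per WT library and from 7952526 to 16493286 per KO library. On principal components of all tested repeats, 2 libraries stood away from the rest, WT replicate 2 (component 1, 21.7% of the variance) and KO replicate 5 (component 2, 12.2%), which was also the shallowest. MERVL-int, the internal part of the retrovirus known for its transcripts at the 2-cell stage, was at 19686 normalised CPM or more in every library, where CPM are reads scaled to a common library size and TMM is the correction for composition. The files hold repeats only, and the level of Kdm4a was not analysed here.

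The ERV1 elements made up about 1 in 100 of the counts. They held 1.06% ± 0.0452 of all counts in WT, between 1.01% and 1.14%, and 1.09% ± 0.0723 in KO, between 1.03% and 1.23% (SD, n = 6 each). These ranges overlapped for most of their length. Of the counts in the LTR class, the ERV1 elements took 1.91% ± 0.137 in WT and 2.30% ± 0.282 in KO (SD, n = 6), with ranges of 1.70% to 2.11% and 1.98% to 2.78%. This share also depends on the rest of the class, where MERVL-int averaged 66062 normalised CPM in WT and 32176 in KO. It is therefore no measure of a rise of the members themselves. A library detected 109 to 115 of the 115 names. The reads were concentrated in few of them: RMER5 alone held 13.6% of the members' counts, the 10 leading names 50.6% and the 20 leading names 70.8%.

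Genotypes were compared for every repeat by edgeR's quasi-likelihood test with Benjamini-Hochberg adjustment over 3312 tested repeats, of which 109 were ERV1 members. Log2 fold changes (log2FC) are KO over WT and relative to the typical repeat, since the median over all tested repeats was 0.01. Of the 109, 4 were lower in KO and 0 higher. The 4 were RLTR1B-int, MER89, RMER5 and LTRIS4B, and they made up 3.67% of the tested members, against 1.27% of all tested repeats that were called lower and 0.151% called higher. Among the 78 members that averaged 10 normalised CPM or more, 3 were lower (3.85%, against 2.49% of all repeats at that level). At an unadjusted p under 0.05, edgeR had 24 of the 109 members lower (against 7.91% of all tested repeats) and 5 higher (4.59%, against 5.50%). DESeq2 called 10 of the 109 lower and 1 higher (9.17% and 0.917%, against 3.77% and 1.21% of all tested repeats). Limma-voom with sample weights called 4 and 0 (3.67% and 0%, against 1.9% and 0.242%). The median log2FC of the tested members was -0.14, and 69 of them were below 0 (63.3%, against 48.8% of all tested repeats). The LTR class, which holds the members, had 26 of its 637 tested repeats called lower and 2 higher. At an unadjusted edgeR p under 0.05 the class had 140 lower and 35 higher. Its median log2FC was -0.06, with 376 of the 637 below 0, so the lower side was not particular to the members. Under total-count scaling the median over all repeats moved to 0.32 and that of the members to 0.17, and the members' calls turned to 2 lower and 6 higher (1.83% and 5.50%). All tested repeats then had 0.996% lower and 10.8% higher, so the members' share of higher calls lay below that of all repeats.

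**Figure D1:**
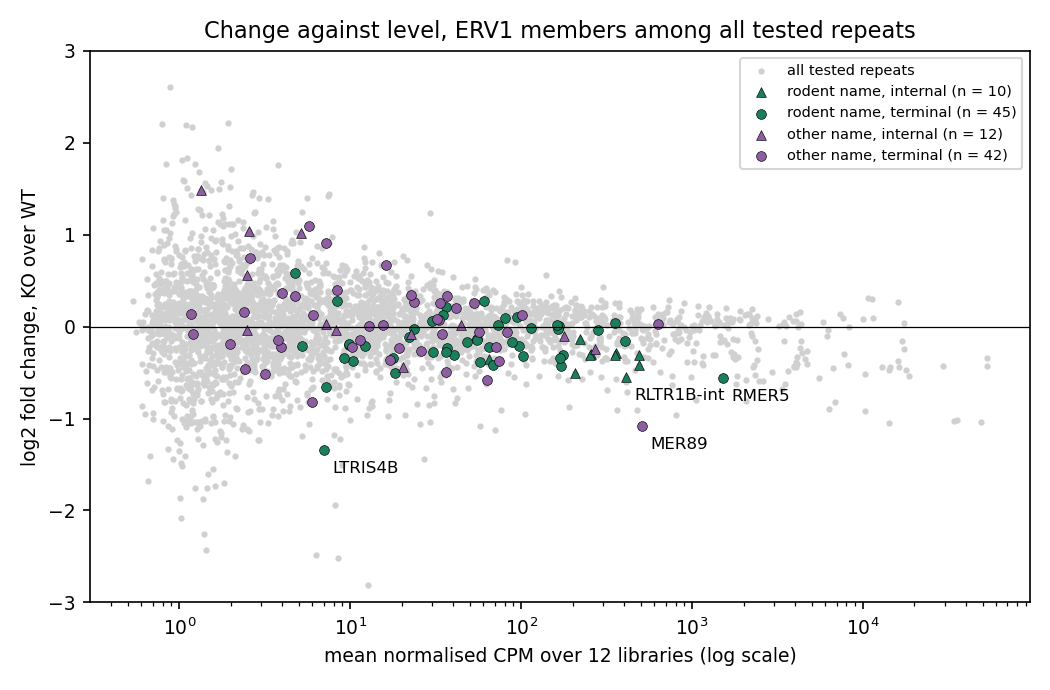
Log2FC (KO over WT) against mean normalised CPM on a log axis, with each point 1 repeat, all 3312 tested repeats in grey and the 109 tested ERV1 members coloured by name group, triangles for internal parts and circles for terminal repeats. The 4 called members carry their names, and RMER5, MER89 and RLTR1B-int lie among the most abundant members while LTRIS4B is rare.

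RLTR1B-int is the internal part of a rodent ERV1 element flanked by the terminal repeat RLTR1B. Its level was 413 normalised CPM in the lowest WT library, 495 at the median and 562 in the highest, and 283, 333 and 386 in KO. The groups were fully separate, and the nearest libraries were KO replicate 5 and WT replicate 5. RLTR1B-int fell from 489 ± 49.5 to 334 ± 38.9 (SD, n = 6), a log2FC of -0.55 (standard error, SE, 0.09, edgeR adjusted p = 0.0149). The call was lost under total-count scaling (log2FC -0.24, edgeR adjusted p = 0.122).

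MER89 is a terminal repeat of an old element with a name in the series used for repeats shared among mammals. Its WT libraries ran from 511 over a median of 657 to 1035 normalised CPM and its KO libraries from 191 over 323 to 503. The groups did not overlap, and WT replicate 2 was the highest of all. MER89 fell from 693 ± 187 to 327 ± 119 (SD, n = 6), a log2FC of -1.08 (SE 0.23, edgeR adjusted p = 0.0302). Under total-count scaling the log2FC was -0.78 and the call was kept (edgeR adjusted p = 0.0113), but with no filter it was lost (edgeR adjusted p = 0.0847). The internal part of the same name, MER89-int, chosen after its values were seen, was rare, at 1.66 ± 1.26 normalised CPM for WT against 3.48 ± 2.80 for KO (SD, n = 6, edgeR adjusted p = 0.446). In both groups, then, the MER89 reads lay almost wholly in the terminal repeat.

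RMER5, a rodent terminal repeat and the most abundant of the members, ran from 1387 over a median of 1758 to 2428 normalised CPM in WT and from 968 over 1266 to 1397 in KO. In KO, 5 of 6 libraries lay below every WT library, and KO replicate 2 lay just above the lowest, WT replicate 5. RMER5 fell from 1796 ± 353 to 1222 ± 157 (SD, n = 6), a log2FC of -0.56 (SE 0.12, edgeR adjusted p = 0.0402). The call was lost under total-count scaling (-0.24, edgeR adjusted p = 0.0695), with RLE factors (-0.57, 0.0579) and with no filter (-0.54, 0.131).

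LTRIS4B belongs to the LTRIS terminal repeats, a group related to the MuRRS elements of mouse. It was rare, with 26 to 158 reads per library. Its WT libraries ran from 6.15 over 8.74 to 18.8 normalised CPM and its KO libraries from 2.55 over 4.38 to 4.74, with no overlap, and WT replicate 2 was again the highest. LTRIS4B fell from 10.2 ± 4.47 to 3.97 ± 0.951 (SD, n = 6), a log2FC of -1.35 (SE 0.29, edgeR adjusted p = 0.0306), and the call was lost with no filter (edgeR adjusted p = 0.0847). The other 8 LTRIS names did not pass the test. All 9 LTRIS names, LTRIS4B included, had a negative log2FC (against 48.8% of all tested repeats), from -1.35 to -0.02 with a median of -0.22. Related names may share reads, so the 9 names may not be separate observations. Under total-count scaling 3 of them were negative and the median was 0.07, against 0.32 for all repeats. Names without overlap were 3 of the 109 tested members (2.75%), all with KO below WT, against 1.39% of all tested repeats below and 0.725% above. The LTR class had 25 of 637 below and 4 above.

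**Figure D2:**
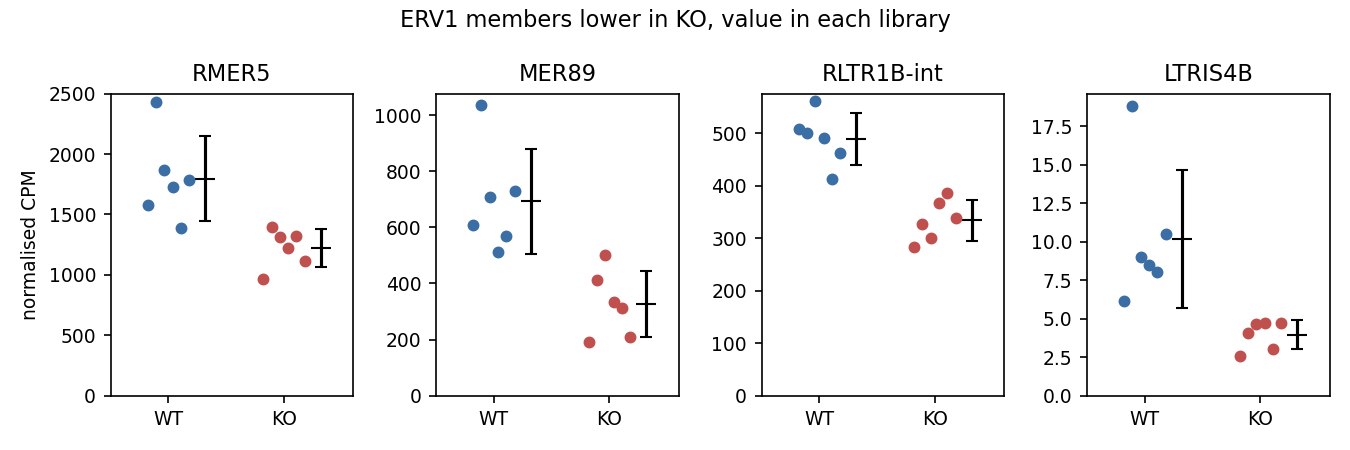
Normalised CPM of the 4 members lower in KO, with each point 1 library, 6 WT in blue and 6 KO in red, and the black bar the mean with its SD. The groups are separate for MER89, RLTR1B-int and LTRIS4B and touch for RMER5, where 1 KO library at 1397 lies above the lowest WT library at 1387.

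When 1 library was left out, the calls of RMER5, MER89 and LTRIS4B were lost for 9, 8 and 7 of the 12 libraries. Their log2FC stayed negative, from -0.63 to -0.45, -1.25 to -0.94 and -1.45 to -1.08. The call of RLTR1B-int was kept throughout, with edgeR adjusted p from 0.0113 to 0.0481. Without WT replicate 1, 3, 4 or 6 the edgeR adjusted p of RMER5 was 0.0588, 0.0992, 0.0622 or 0.0880, and without KO replicate 1, 3, 4, 5 or 6 it was 0.0869, 0.0735, 0.0743, 0.0626 or 0.110. For MER89 it was 0.0584, 0.0511, 0.0744 or 0.0768 without WT replicate 1, 2, 3 or 6 (edgeR), and 0.0674, 0.0628, 0.0677 or 0.0770 without KO replicate 1, 4, 5 or 6. For LTRIS4B it was 0.0608 or 0.0733 without WT replicate 3 or 6 (edgeR), and 0.0744, 0.0598, 0.0510, 0.0626 or 0.0687 without KO replicate 1, 3, 4, 5 or 6. Without both WT replicate 2 and KO replicate 5, the pair that stood apart, only RLTR1B-int of the 4 kept its call, while RMER5, MER89 and LTRIS4B had log2FC values of -0.47, -0.92 and -1.02 (edgeR adjusted p = 0.0750, 0.108 and 0.0751). The number of members called lower was 2 without WT replicate 1 (1.83%, against 0.819% of all tested repeats). It was 1 without WT replicate 3 or 6 (0.917%, against 0.614% and 0.52%) and 7 without WT replicate 5 (6.42%, against 1.4%). On the KO side it was 1 without replicate 1, 5 or 6 (0.917%, against 0.773%, 0.72% and 0.527%). It was 2 without KO replicate 3 or 4 (1.83%, against 0.839% and 1%) and 7 without KO replicate 2 (6.42%, against 2.43%).

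The internal parts with rodent names had differences of 1 sign. Of the 10 names, RLTR1B-int passed the test and the other 9 did not, against 1.27% of all tested repeats called lower. All 10 had a negative log2FC (against 48.8% of all tested repeats), from -0.55 to -0.14 with a median of -0.31. An unadjusted edgeR p under 0.05 was found for 9 of them, against 7.91% of all tested repeats on the lower side. All 10 averaged 10 normalised CPM or more. At that level 204 of 1445 repeats were lower at an unadjusted edgeR p under 0.05, and 2.49% were called lower. The LTR class had 140 of 637 lower at that unadjusted p. The 10 include MuLV-int and RLTR4_MM-int of the murine leukaemia virus group, MMERGLN-int, named for a primer site that fits glutamine transfer RNA, MMVL30-int of the VL30 elements, MuRRS-int, MuRRS4-int and MURVY-int, an element with many copies on the Y chromosome. Under total-count scaling the median of the 10 was -0.01, with 6 below 0 and none called. Against the median of all tested repeats in the same scaling, all 10 lay lower in both. That median moved from 0.01 to 0.32 and the median of the 10 from -0.31 to -0.01. Both moved by a similar amount, so the second scaling is not a separate check.

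**Figure D3:**
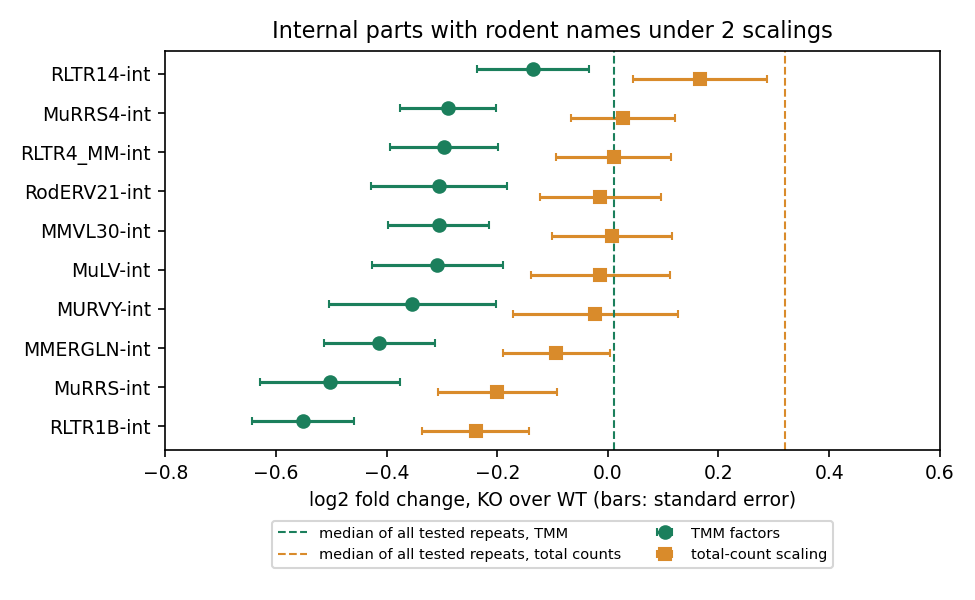
Log2FC (KO over WT) with its standard error for the 10 internal parts with rodent names, under TMM factors in green and total-count scaling in orange, with dashed lines at the medians of all tested repeats (0.01 and 0.32). Every name lies left of the dashed line of its own colour, and RLTR1B-int is lowest in both.

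MMERGLN-int came near the threshold. Its WT libraries ran from 406 over a median of 574 to 634 normalised CPM and its KO libraries from 356 over 424 to 457, so the groups overlapped by WT replicate 5 alone. Its log2FC was -0.41 (SE 0.10, edgeR adjusted p = 0.0552). It was called lower with DESeq2, with robust edgeR, and in the edgeR fits with a minimum mean of 10 CPM or without simple repeats (adjusted p = 0.00911, 0.0479, 0.0175 and 0.0135). MMERGLN-int was not called with limma-voom, nor with edgeR under RLE or upper quartile factors (adjusted p = 0.0568, 0.0676 and 0.0811). Under total-count scaling its log2FC was -0.09 (edgeR adjusted p = 0.570). MuRRS-int, chosen after its values were seen, had a log2FC of -0.50 (SE 0.13, edgeR adjusted p = 0.0601), from 242 ± 33.9 to 171 ± 28.2 normalised CPM (SD, n = 6). DESeq2 called MuRRS-int lower (adjusted p = 0.00846), and under total-count scaling its log2FC was -0.20 (edgeR adjusted p = 0.245).

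The most abundant internal parts otherwise had smaller differences, none of which passed the test. MMVL30-int stood at 544 ± 50.8 normalised CPM for WT against 440 ± 54.6 for KO (SD, n = 6), with 4 of 6 KO libraries below every WT library and a log2FC of -0.31 (edgeR adjusted p = 0.114). The names RLTR6_Mm, RLTR6B_Mm and RLTR6C_Mm, the terminal repeats of VL30 elements that the rule left out, had log2FC values of -0.62, -0.88 and -0.86 (edgeR adjusted p = 0.0212, 0.0217 and 0.0149). Whether MMVL30-int differed from these was not tested. MuRRS4-int had a log2FC of -0.29 and RodERV21-int of -0.31 (edgeR adjusted p = 0.116 and 0.269). DESeq2 called MMVL30-int lower (adjusted p = 0.0388), and the edgeR fits with a minimum mean of 10 CPM or without simple repeats called MuRRS4-int lower (adjusted p = 0.0448 and 0.0381). Under total-count scaling MMVL30-int and MuRRS4-int had log2FC values of 0.0074 and 0.028. In RodERV21-int, 5 of 6 KO libraries lay below every WT library and KO replicate 2, at 438 normalised CPM, above every one.

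MERV1_LTR, a terminal repeat, was also near the threshold. It ran from 60.5 over a median of 72.5 to 99.9 normalised CPM in WT and from 43.0 over 48.2 to 66.7 in KO, and 5 of 6 KO libraries lay below every WT library. Its log2FC was -0.58 (SE 0.14, edgeR adjusted p = 0.0534). DESeq2, robust edgeR, the fit with a minimum mean of 10 CPM, the fit without simple repeats and the fit with a replicate block called it (adjusted p = 0.00411, 0.0479, 0.0214, 0.0154 and 0.0433). Limma-voom did not, nor did edgeR with RLE or upper quartile factors (adjusted p = 0.0767, 0.0614 and 0.0625). Under total-count scaling the log2FC of MERV1_LTR was -0.26 (edgeR adjusted p = 0.215). The internal part MERV1_I-int, chosen after its values were seen, had a log2FC of -0.24 (SE 0.11, edgeR adjusted p = 0.312), and whether both parts differed was not tested.

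The internal part and the terminal repeat of 1 element were set against each other within each library, which makes scaling unnecessary. There were 4 such pairs with both parts averaging 10 normalised CPM or more. RLTR1B, the terminal repeat of RLTR1B-int, stood at 198 ± 29.8 normalised CPM for WT against 147 ± 15.96 for KO (SD, n = 6), a log2FC of -0.43 (edgeR adjusted p = 0.0592). The log2 ratio of RLTR1B-int to RLTR1B averaged 1.31 ± 0.210 in WT against 1.19 ± 0.244 in KO (SD, n = 6), and the difference of -0.13 had a 95% interval of -0.42 to 0.16 (exact permutation test, two-sided, p = 0.344, adjusted p = 0.742 over 7 ratios). For RLTR4_MM-int over RLTR4_Mm the difference was 0.11 (95% interval -0.21 to 0.39), for RLTR14-int over RLTR14 0.01 (-0.25 to 0.27) and for MER34B-int over MER34B 0.09 (-0.28 to 0.44), none of which passed (exact permutation adjusted p = 0.742, 0.896 and 0.790). RLTR4_Mm ran from 57.7 to 69.4 normalised CPM in WT and from 35.4 to 70.5 in KO, where KO replicate 3 lay above every WT library and the other 5 below every one. RLTR4_MM-int, an internal part of the murine leukaemia virus group, had a log2FC of -0.30 (edgeR adjusted p = 0.157). MuLV-int, chosen after its values were seen, had a log2FC of -0.31 (edgeR adjusted p = 0.234).

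RLTR1B-int, MER89 and RMER5 were also set against MERVL-int, which had a log2FC of -1.04 (SE 0.19, edgeR adjusted p = 0.0159). Relative to MERVL-int, RMER5 and RLTR1B-int were higher in KO and the difference of MER89 did not pass. RMER5 and RLTR1B-int had themselves fallen, but less than MERVL-int. The median log2FC over all tested repeats was 0.01, so a higher ratio to MERVL-int was not particular to these members. The log2 ratio of RMER5 to MERVL-int lay between -5.28 and -5.03 in WT and between -4.96 and -4.35 in KO, with all 6 KO libraries above all WT libraries and a difference of 0.51 (95% interval 0.27 to 0.76, exact permutation p = 0.00216, the smallest that 6 libraries against 6 can give, adjusted p = 0.0152). For RLTR1B-int the difference was also 0.51 (95% interval 0.12 to 0.90, exact permutation p = 0.00649, adjusted p = 0.0227), with 4 of 6 KO libraries above every WT library. For MER89 the ratio averaged -6.58 ± 0.219 in WT against -6.65 ± 0.319 in KO (SD, n = 6), and the difference of -0.07 had a 95% interval of -0.39 to 0.28 (exact permutation p = 0.677, adjusted p = 0.790).

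**Figure D4:**
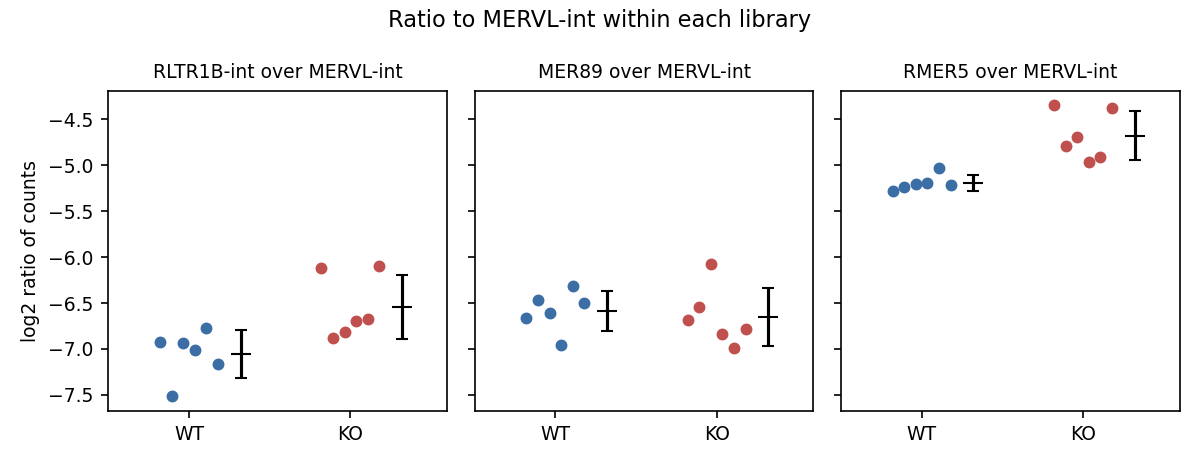
Log2 ratio of counts to MERVL-int within each library for RLTR1B-int, MER89 and RMER5, with each point 1 library, 6 WT in blue and 6 KO in red, and the black bar the mean with its SD. The KO libraries are higher for RMER5 without overlap and for RLTR1B-int with overlap, and for MER89 the groups overlap.

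Of the 45 tested terminal repeats with rodent names, 2 fell, RMER5 and LTRIS4B, and 43 did not pass, against 1.27% of all tested repeats called lower. Their log2FC was negative for 33 and positive for 12 (73.3% negative, against 48.8% of all tested repeats), with a median of -0.19. Under total-count scaling 12 of the 45 were negative and the median was 0.12, against 0.32 for all repeats. The RLTR1 names other than RLTR1B-int and RLTR1B had log2FC values from -0.34 to 0.02. RLTR14 was the least variable of the 78 more abundant members, with a coefficient of variation of 4.39% in WT and 4.97% in KO. It stood at 427 ± 18.7 normalised CPM for WT against 384 ± 19.1 for KO (SD, n = 6), with 4 of 6 KO libraries below every WT library and a log2FC of -0.15 (edgeR adjusted p = 0.258), or 0.16 under total-count scaling. RMER21A, with nearly as many reads, spread far wider, from 250 to 459 in WT and from 205 to 497 in KO, with a log2FC of 0.04 (edgeR adjusted p = 0.967). RLTR30C_MM had a log2FC of -0.51 (SE 0.27, edgeR adjusted p = 0.450), from 21.4 ± 8.40 to 15.1 ± 5.03 normalised CPM (SD, n = 6).

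The names outside the rodent series, mostly the MER and LTR names of elements shared among mammals, had no common direction. Of 54 tested, 26 had a negative and 28 a positive log2FC, with a median of 0.01. MER89 was the single call, against 1.27% of all tested repeats called lower and 0.151% called higher. Under total-count scaling 9 of the 54 were negative and the median was 0.33, against 0.32 for all repeats. MLTR14, the second name by reads, stood at 626 ± 35.2 normalised CPM for WT against 640 ± 36.3 for KO (SD, n = 6), a log2FC of 0.03 (SE 0.06, edgeR adjusted p = 0.912). Under total-count scaling MLTR14 had a log2FC of 0.35, near the median of 0.32 of all repeats, and was called higher (edgeR adjusted p = 0.0235).

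None of the members on the higher side passed. LTR37B and LTR37A, terminal repeats with related names, had the most positive log2FC values among the 78 more abundant members, 0.67 and 0.34 with standard errors of 0.34 and 0.17 (edgeR adjusted p = 0.420 each). LTR37B ran from 2.38 to 20.3 normalised CPM in WT and from 14.7 to 25.2 in KO, and the lowest value was that of WT replicate 2. The internal part LTR37-int, chosen after its values were seen, had a log2FC of 0.02 (edgeR adjusted p = 0.989). MER34A1, LTR72_RN and MER57C2 had log2FC values of 0.34, 0.28 and 0.27 (edgeR adjusted p = 0.395, 0.261 and 0.610). LTR72_RN lay above the WT median in all 6 KO libraries, at 57.5 to 73.2 normalised CPM against 42.3 to 65.1 in WT. Under total-count scaling, where the median of all repeats was 0.32 and 10.8% of them were called higher, LTR37A, MER34A1 and LTR72_RN were among those calls (edgeR adjusted p = 0.0388, 0.0198 and 0.00931).

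The members differed in their spread between libraries. Over the 78 more abundant members, the coefficient of variation had a median of 17.3% in WT and 17.1% in KO, and reached 48.8% in WT for LTR37B. WT replicate 2 held the highest WT value for 30 of the 109 tested members and the lowest for 25, and KO replicate 1 held the lowest KO value for 33 and the highest for 2. The 6 members that were not tested, LTR75_1, LTR77, LTR58, MER101B, MER83B-int and MER83A-int, had at most 98 reads each over all 12 libraries.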

How the data were processed

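Each library has 1 deposited table of estimated counts, all whole numbers, with 1 row for each repeat name. Per the submitters' processing notes, the genome build was mm10 and Trimmomatic 0.32 and edgeR were used, without a stated role. Not given in the sources used here are the aligner, the counting program, the repeat annotation and the use of strand. The tables' own names, as deposited, hold the words uniq and fraction, without saying how reads with several matches were divided, so related names may share reads. Groups and replicate numbers came from the sample titles, and the numbers in the names of the deposited tables run the opposite way within each group.

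Rows were kept by filterByExpr, with library sizes from all rows and TMM factors. The edgeR 4.0.16 quasi-likelihood test (R 4.3.3) set KO against WT, with no covariate, at an adjusted p of 0.05, and was tested on simulated data. Normalised CPM uses library size times TMM factor. Log2 ratios within a library used a pseudocount of 0.5 and exact permutation tests over 924 regroupings (scipy 1.17.1), with 95% intervals from inverting the test. Alternatives were other scalings, filters and row sets, DESeq2 1.42.0, limma 3.58.1, robust edgeR, a fold of 1.5, a replicate block and leaving out libraries. The members, lists and tests were chosen with earlier results of these data known. Named members were all called ones, RLTR1B-int, MER89 and RMER5, the 10 with most reads, the 5 largest log2 fold changes in each direction at a mean of at least 10 normalised CPM, up to 5 names a direction at that mean whose groups did not overlap, and the internal and terminal pairs. Rodent names were found by their prefixes or suffixes, and all others, MLTR14 and the MERV1 names included, were grouped as outside the rodent series. No pair of the 30 within groups agreed within sampling noise (chi-square per degree of freedom 29.3 to 174.2). No sequence of these repeats was used here.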

Additional observations from a re-analysis of the deposited data

Results flagged for a closer look

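In 3 of 66 groups of 6 libraries, 1 library stood far from the other 5, and chance marks about 1 in 20 such groups. LTRIS4B was at 18.8 normalised CPM in WT replicate 2, against 6.15 to 10.5 in the other WT libraries. The log2 ratio of RLTR4_MM-int to RLTR4_Mm was 1.67 in KO replicate 3, against 2.28 to 2.41 in the other KO libraries. The log2 ratio of RMER5 to MERVL-int was -5.03 in WT replicate 5, against -5.28 to -5.20 in the other WT libraries, and that library is the WT one nearest to KO.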

How the results depend on the processing

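The number of members called lower, 4 as reported, was 2 under total-count scaling (1.83%, against 0.996% of all repeats) and 1 of 115 with no filter (0.870%, against 0.164%). It was 0 against a fold of 1.5 (0%, against 0.0302% of all repeats). Without both WT replicate 2 and KO replicate 5, chosen after seeing the data, it was 1 (0.917%, against 0.555%). A minimum mean of 10 CPM gave 8 of 78 (10.3%, against 6.36% of all repeats tested there), and leaving out simple repeats gave 10 (9.17%, against 7.11%). DESeq2 called 10 (9.17%, against 3.77%), and 1 to 7 were called when 1 library was left out. The number called higher, 0 as reported, was 6 under total-count scaling (5.50%, against 10.8% of all repeats), 1 with DESeq2 (0.917%, against 1.21%) and 0 when any 1 library was left out. Fewer rows were tested with the higher minimum and without simple repeats, 1447 and 1223. Under total-count scaling the log2 fold changes of MER34B, MER34B-int, MMVL30-int, MuRRS4-int, RLTR14, RLTR14-int and RLTR4_MM-int turned positive, at 0.10, 0.20, 0.0074, 0.028, 0.16, 0.17 and 0.011. That of RMER21A was -0.027 with limma-voom and ran from -0.075 to 0.16 when 1 library was left out. The log2 ratio difference of RLTR14-int to RLTR14 ran from -0.026 to 0.066 when 1 library was left out, around 0. As a share of all counts, the members without MMVL30-int held 1.02% in WT and 1.04% in KO. All members together held, of the counts outside simple repeats and ribosomal RNA, 1.21% in WT and 1.26% in KO. No pairing by replicate number was seen: the correlations of same-numbered deviations ran from -0.07 to 0.15, and 1 of 6 WT libraries correlated best with its own number. Whether same-numbered libraries shared a batch was not tested. With a replicate block 5 members were lower (4.59%, against 1.42% of all repeats). The ratio differences to MERVL-int of 0.51 for RLTR1B-int and 0.51 for RMER5 then had a paired sign-flip adjusted p of 0.109 each, from an unadjusted 0.0312 that is the smallest 6 pairs can give. Both kept an adjusted p under 0.05 when any 1 library was left out. The causes of these differences were not tested.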
